A study of Mus musculus with 5 samples.

Results

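Solute carriers are membrane proteins that move amino acids, sugars, ions, metals, nucleotide sugars and vitamins across the plasma membrane and the membranes of organelles. The genes described here are the rows of the deposited table whose name starts with SLC and a digit, without the mitochondrial Slc25a carriers. The rule found 157 genes of 12930 rows, in 40 numbered families. Of the 157, 150 had a value in every library and were among the 12088 genes tested, and 7 had at least 1 missing value. Their sources are 5 RNA-seq libraries of mouse embryonic stem cells of the OG2 line, with the strain given as (CBA/CaJxC57BL/6J) with 129Sv/Jae. Cells had received siRNA against Dhx30 (siDhx30, 2 libraries), siRNA against Tfam (siTfam, 2 libraries) or a negative control (NC, 1 library). All cells spent 24 h in medium with LIF (1000 U/ml), PD0325901 (1 µM) and CHIR99021 (3 µM). They were then transfected with siRNA at 50 nM and kept for 36 h in differentiation medium with bFGF (12.5 ng/ml), Activin A (20 ng/ml) and 1% serum replacement. Dhx30 encodes an RNA helicase of mitochondrial RNA granules, and Tfam the factor that packages and transcribes mitochondrial DNA.

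Families are numbered by sequence likeness, and a family usually shares a substrate class. Slc7 proteins are light subunits or single chains that carry amino acids, and several of them reach the cell surface only in a disulfide-linked pair with an Slc3 protein. Slc39 (ZIP) proteins bring zinc and some other metals into the cytosol, and Slc30 (ZnT) proteins mostly move zinc out of it. In embryonic stem cells, amino acid uptake feeds protein synthesis and mTORC1 signalling, and cystine uptake feeds glutathione synthesis. Several Slc7 genes are targets of the stress-response factor ATF4, which mitochondrial dysfunction can activate.

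The table holds 1 log2 ratio per gene for each siRNA library, without counts, expression levels or p-values, so neither depth nor the abundance of any carrier is known. The headings name neither direction nor denominator. All values here were turned to siRNA over NC, because genes lacking a value in some library had 1574 values as deposited and all were negative, as they would be if a gene nearly silent in NC entered the table only where the siRNA library had reads. This reading was inferred from the table. If it is wrong, every sign against NC and every sign of a difference turns round. Once turned, Dhx30 lay at -0.40 and -0.20 in siDhx30 against 0.01 and 0.04 in siTfam, and Tfam at -0.28 and -0.02 in siTfam against 0.12 and -0.01 in siDhx30. The intervals of both target genes included 0 (limma adjusted p = 0.998 for Dhx30 in siDhx30 and 0.987 for Tfam in siTfam), so a knockdown at the RNA level was not shown. Of 13 pluripotency and epiblast markers, 4 (Esrrb, Tfcp2l1, Otx2 and Dnmt3b) had complete rows, and ratios without levels cannot check the cell type. Of other cell types, 1 of 4 primitive endoderm and 2 of 4 fibroblast or feeder markers were complete. The endoderm marker Dab2 lay at -1.04 and -0.02 in the siDhx30 libraries and -1.62 and -1.30 in the siTfam libraries. Another endoderm marker, Gata6, had an incomplete row with 1 value, 1.58 in siDhx30 replicate 2. The fibroblast markers Col1a2 and Thy1 had siDhx30 means of -0.75 and 0.69 and siTfam means of -0.32 and 0.32. Their part in the results below was not tested, and fewer cells of a type and less RNA per cell cannot be told apart in such bulk samples. The replicates are not said to be separate cultures, so p-values measure only the spread between these libraries.

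No solute carrier gene passed an adjusted p of 0.05 in any comparison. The test was limma on all 12088 complete genes, with Benjamini-Hochberg adjustment and the NC library entered as zeros. Against NC, 0 of 150 members passed in siDhx30 (0% of all genes), with 8 members at an unadjusted p under 0.05 (4 higher and 4 lower), or 5.33% against 5.04% of all genes. In siTfam 0 of 150 passed (0% of all genes), with 10 at an unadjusted p under 0.05 (4 higher and 6 lower), or 6.67% against 6.11% of all genes. Between siDhx30 and siTfam 0 of 150 passed (0% of all genes), with 4 at an unadjusted p under 0.05 (2 higher and 2 lower), or 2.67% against 2.79% of all genes. All these shares are near the background. The counts were small and unsteady: the 10 became 5 without siTfam replicate 2, and the 4 became 9 without siDhx30 replicate 1, 8 without siDhx30 replicate 2 and 9 without siTfam replicate 1.

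The median log2 ratio of the members was -0.01 in siDhx30 and -0.04 in siTfam, beside -0.01 and -0.02 over all genes tested. The ratio was above 0 for 73 of 150 members in siDhx30 and for 69 of 150 in siTfam. Of all 12088 genes it was above 0 for 5819 in siDhx30 and 5723 in siTfam, so the member counts are near the background. The median size of the ratio, sign ignored, was 0.26 in siDhx30 and 0.20 in siTfam for members, beside 0.20 and 0.21 for all genes. The 2 libraries of one siRNA differed from each other by a median of 0.24 (siDhx30) and 0.21 (siTfam) for members, about as much as the ratios themselves. Both siDhx30 libraries lay above 0.5 for 5 of 150 members (3.33%, against 4.77% of all genes), which were Slc7a9, Slc9b2, Slc18b1, Slc39a8 and Slc44a4, and below -0.5 for 6 (4%, against 5.26%). Both siTfam libraries lay above 0.5 for 6 members (4%, against 5.34%) and below -0.5 for 8 (5.33%, against 5.74%). The comparisons with NC share its 1 library, so a gene that was unusual in NC shifts all 4 ratios at once, and this cannot be told apart from a common effect of the siRNAs.

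The comparison of siDhx30 with siTfam asks where the siRNAs differ, and the NC library cancels out of it. The smallest p was that of Slc39a8 (ENSMUSG00000053897.15; GRCm38 chromosome 3, 135825279 to 135888572, plus strand), which encodes ZIP8, a plasma membrane and lysosomal importer of zinc, manganese and iron. Its log2 ratios were 0.64 and 0.76 in siDhx30 and -0.69 and -0.78 in siTfam. Both siDhx30 libraries lay above NC and both siTfam libraries below it, and the replicates differed by far less than the groups. The difference was 1.44 (SE 0.15; 95% interval 1.01 to 1.86; unadjusted p = 0.000694, limma adjusted p = 0.999), or 2.71-fold, and it stayed between 1.38 and 1.49 when any 1 siRNA library was left out. Slc39a8 is singled out here for its small p, which favours genes with close replicates, so its steadiness is no separate support. Against NC, Slc39a8 stood at 162% in siDhx30 (log2 mean 0.70, SE 0.19, limma adjusted p = 0.805) and at 60.0% in siTfam (log2 mean -0.74, SE 0.19, limma adjusted p = 0.676).

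Slc17a5, the lysosomal sialic acid exporter sialin, was separated in the direction opposite to Slc39a8. It lay at 0.24 and 0.0054 with siDhx30, against 0.94 and 1.01 with siTfam, so the siTfam libraries stood apart while the siDhx30 libraries were close to NC. The difference was -0.85 (SE 0.17; 95% interval -1.32 to -0.38; unadjusted p = 0.00715, limma adjusted p = 0.999). In siTfam it stood at 197% of NC (limma adjusted p = 0.611).

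Slc35b4, a Golgi carrier of UDP-xylose and UDP-N-acetylglucosamine, was below NC in all 4 libraries to different degrees. Its log2 ratios were -2.90 and -1.88 in siDhx30 and -1.26 and -0.42 in siTfam. The groups did not overlap, but the libraries within each group were far apart, and the difference of -1.55 (SE 0.49; unadjusted p = 0.0356, limma adjusted p = 0.999) ran from -2.06 to -1.04 with a library left out. It stood at 19.1% of NC in siDhx30 (limma adjusted p = 0.762) and at 55.9% in siTfam (limma adjusted p = 0.967). Slc35b4 shares 919 exon bases with the antisense gene Gm13856 on the opposite strand, whose ratios were -0.07, 0.20, -0.21 and 0.36 in the same library order. Slc39a11, which encodes the zinc transporter ZIP11, was also among the 5 members with the smallest p here. It lay at -0.42 and -0.21 in the siDhx30 libraries and -0.70 and -0.93 in the siTfam libraries, a difference of 0.50 (SE 0.18; unadjusted p = 0.0515, limma adjusted p = 0.999).

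**Figure D1:**
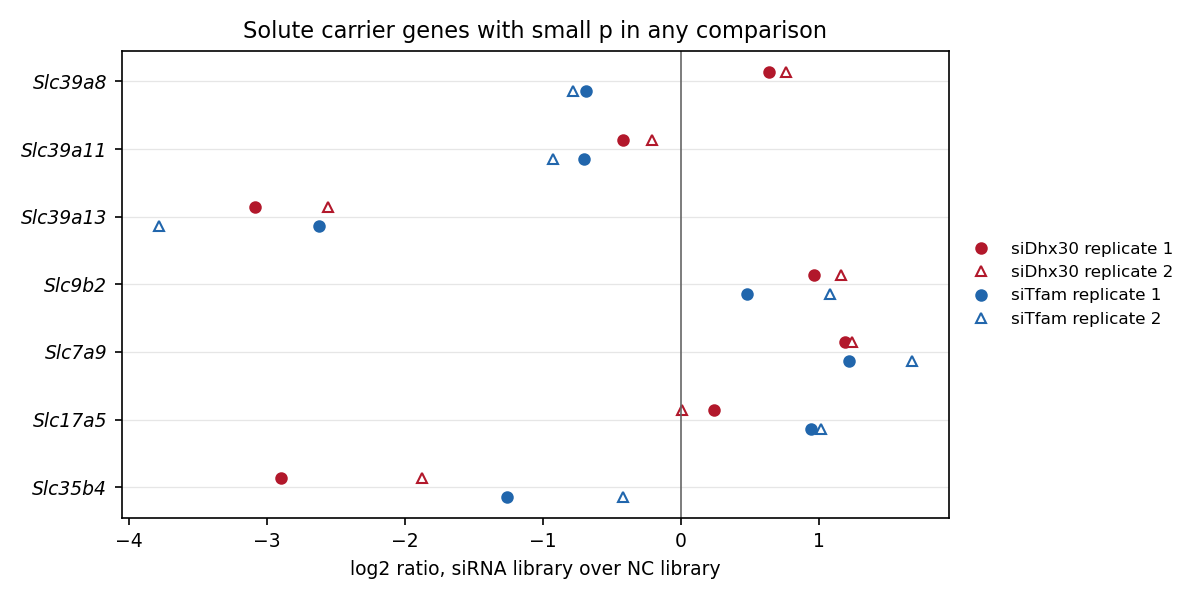
Log2 ratio to NC of each siRNA library for 7 solute carrier genes that are among the 5 smallest p in any of the 3 comparisons, none of which passed after adjustment; red marks siDhx30, blue siTfam, circles replicate 1 and triangles replicate 2, and the vertical line is NC. Slc39a8 lies above NC in both siDhx30 libraries and below it in both siTfam libraries, whereas Slc39a13 lies below -2.5 and Slc7a9 above 1 in all 4.

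Across all members the differences between the siRNAs were close in size to those of all genes. The median difference was 0.01, beside -0.0015 over all genes, and its median size was 0.14 against 0.15. Both siDhx30 libraries lay above both siTfam libraries for 20 of 150 members (13.3%, against 14.7% of all genes) and below both for 21 (14%, against 14.3%). These shares are again near the background.

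**Figure D2:**
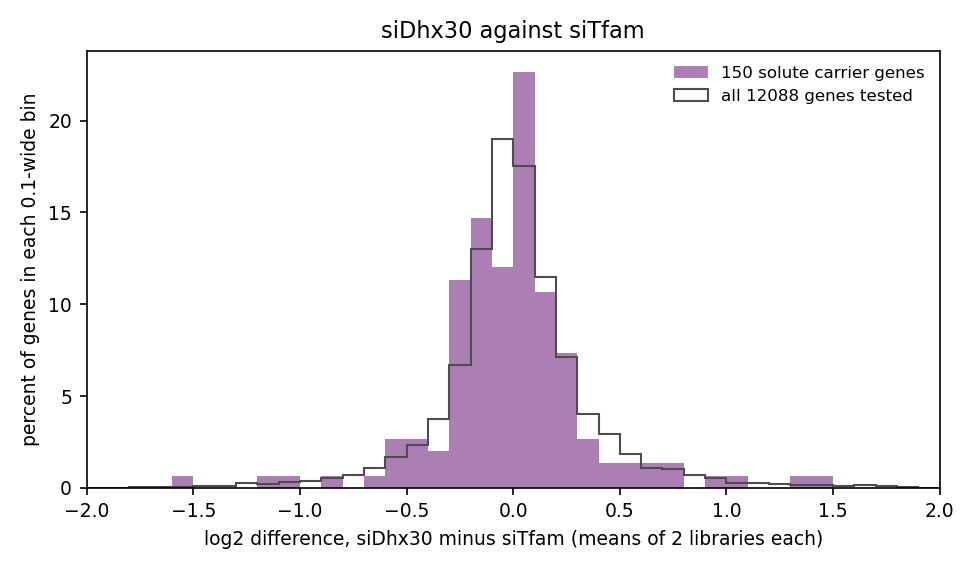
Distribution of the log2 difference, siDhx30 minus siTfam (x axis), as the percent of genes in each bin (y axis), for the 150 solute carrier genes (filled) and for all 12088 genes tested (line). The filled shape follows the line, with a median of 0.01 against -0.0015, and the carrier differences run from -1.55 (Slc35b4) to 1.44 (Slc39a8).

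The Slc39 zinc importers leaned one way between the siRNAs. All 8 complete Slc39 genes had a higher mean in siDhx30 than in siTfam, beside 6015 of all 12088 genes, with a median difference of 0.30. None passed by itself. For 5 of the 8 (Slc39a6, Slc39a8, Slc39a9, Slc39a10 and Slc39a11) both siDhx30 libraries lay above both siTfam libraries, as they did for 14.7% of all genes. The median was 0.16, with 6 of 8 higher, without siTfam replicate 2, and 0.55, with 7 of 8 higher, without siTfam replicate 1. With siDhx30 replicate 1 left out it was 0.38 (8 of 8 higher), and with siDhx30 replicate 2 left out 0.27 (7 of 8 higher).

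Among the plasma membrane importers, Slc39a6 lay at 0.41 and 0.69 with siDhx30, against 0.30 and -0.03 with siTfam, a difference of 0.42 (SE 0.21). Slc39a10, which can pair with the Slc39a6 protein, lay at -0.05 and -0.10 in the siDhx30 libraries and -0.24 and -0.38 in the siTfam libraries, a difference of 0.24 (SE 0.15). Both genes had the siTfam libraries lower, by less than 0.5. Slc39a14, which encodes ZIP14, the closest relative of ZIP8, did not separate, at 0.31 and 0.02 with siDhx30, against 0.30 and -0.35 with siTfam. Slc39a4, the zinc importer of the gut in mammals, overlapped fully, at -0.28 and 0.0040 in the siDhx30 libraries and -0.28 and -0.08 in the siTfam libraries.

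Of the importers of the secretory pathway, Slc39a9 was above NC throughout, at 0.58 and 0.46 with siDhx30, against 0.39 and 0.44 with siTfam. Its unadjusted p was 0.0486 in siDhx30 (limma adjusted p = 0.988), and it shares 459 exon bases with the opposite-strand gene Erh, whose ratios were -0.45, -0.27, -0.14 and 0.07 in the same order.

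Slc39a13 had the lowest ratios of all members. It encodes ZIP13, which moves zinc out of Golgi and related vesicles and is needed in connective tissue (ENSMUSG00000002105.15; GRCm38 chromosome 2, 91061791 to 91070417, minus strand). Its log2 ratios were -3.09 and -2.56 in siDhx30 and -2.62 and -3.78 in siTfam. All 4 lay more than 2.5 below NC and the groups overlapped, so the gene stood at 14.1% of NC in siDhx30 and at 10.9% in siTfam. If the inferred sign is wrong, these levels are 7.1 and 9.18 times NC, the highest means of the complete members. The mean was -2.83 in siDhx30 (SE 0.58; 95% interval -4.46 to -1.20; unadjusted p = 0.00878, limma adjusted p = 0.673) and -3.20 in siTfam (95% interval -4.83 to -1.57; unadjusted p = 0.00571, limma adjusted p = 0.571). The difference between the siRNAs was 0.37 (95% interval -0.96 to 1.70) and -0.21 without siTfam replicate 2. Slc39a13 shares 215 exon bases with Psmc3, a proteasome ATPase gene on the opposite strand, which lay between -0.17 and -0.06 in all 4 libraries. Because the 4 ratios have 1 denominator, whether the siRNA libraries were low or the NC library was high cannot be told apart.

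Zinc exporters and zinc sensors were measured beside the importers. Of the 9 genes listed for zinc handling, 6 were complete, namely Mtf1, the zinc-sensing transcription factor, and 5 Slc30 genes. The metallothionein genes of the list are not analysed here. Of the 6, 5 were above 0 in siDhx30 and 4 in siTfam, with a median of 0.11 in each, and 0 passed. Of all 12088 genes, 5819 were above 0 in siDhx30 and 5723 in siTfam. The counts of the siRNAs share the 1 NC library. Slc30a6, which loads zinc into the Golgi, lay at 0.48 and 0.41 in the siDhx30 libraries and 0.32 and 0.50 in the siTfam libraries. Slc30a10, which exports manganese, scattered too widely to compare, at -0.06 and -1.47 with siDhx30, against 0.72 and -1.09 with siTfam. Mtf1 lay at 0.24 and -0.14 in the siDhx30 libraries and 0.08 and -0.43 in the siTfam libraries.

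The promoter windows of the most separated and of the lowest zinc importer are shown because MTF1 acts through metal response elements. The windows run from 250 bases before to 50 after a RefSeq start (GRCm38.p6), and the element was searched on both strands as TGCACNC or TGCGCNC, which do not overlap the other motif used below. Capitals mark matches, and Slc39a8 has 2 annotated starts.
Slc39a8 upstream start, chr3:135825029-135825328, plus strand: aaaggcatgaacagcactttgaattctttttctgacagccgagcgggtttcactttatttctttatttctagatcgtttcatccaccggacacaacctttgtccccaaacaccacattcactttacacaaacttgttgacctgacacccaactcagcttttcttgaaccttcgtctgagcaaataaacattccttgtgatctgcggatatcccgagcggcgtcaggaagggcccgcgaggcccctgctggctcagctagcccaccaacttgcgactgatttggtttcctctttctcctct
Slc39a8 downstream start, chr3:135825407-135825706, plus strand: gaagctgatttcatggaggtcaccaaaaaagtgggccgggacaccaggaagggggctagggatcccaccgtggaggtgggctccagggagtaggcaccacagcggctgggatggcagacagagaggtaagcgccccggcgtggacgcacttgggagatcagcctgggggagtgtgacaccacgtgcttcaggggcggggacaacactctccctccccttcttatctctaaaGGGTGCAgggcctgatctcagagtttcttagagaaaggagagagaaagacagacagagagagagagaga
Slc39a13, chr2:91070266-91070565, minus strand: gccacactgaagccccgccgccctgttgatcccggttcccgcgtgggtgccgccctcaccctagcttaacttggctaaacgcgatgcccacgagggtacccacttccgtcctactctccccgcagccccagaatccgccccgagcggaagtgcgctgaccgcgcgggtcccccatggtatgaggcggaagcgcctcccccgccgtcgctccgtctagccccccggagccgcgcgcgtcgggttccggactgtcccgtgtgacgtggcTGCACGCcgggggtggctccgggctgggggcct
The upstream Slc39a8 window had no match, while the downstream window and the Slc39a13 window had 1 each. The letters occur in 25.7% of all 32851 windows and in 38% of the 158 windows that matched 115 of the member genes, so a match is common. Among the 9 windows found for 6 of the Slc39 genes they were in 5. A match is a description of the letters and not a bound site.

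The Slc7 amino acid transporters and their partner Slc3a2 mostly lay within 0.5 of NC, and Slc7a9 lay furthest from it. Slc3a2 encodes the heavy chain 4F2hc that pairs with several Slc7 proteins, and it lay at -0.32 and -0.01 with siDhx30, against -0.22 and -0.04 with siTfam. Slc7a5, the large neutral amino acid transporter LAT1 and a main partner of 4F2hc, lay at -0.21 and -0.12 in the siDhx30 libraries and 0.0045 and -0.11 in the siTfam libraries. Its 95% interval for the difference, -0.53 to 0.32, includes 0, and both siDhx30 libraries lay slightly below both siTfam libraries.

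Slc7a11 encodes xCT, the cystine and glutamate exchanger and a known ATF4 target. It lay at 0.13 and 0.02 with siDhx30, against 0.34 and 0.24 with siTfam. Both siTfam libraries were above both siDhx30 libraries, by little: the difference was -0.22 (SE 0.15; 95% interval -0.64 to 0.21; limma adjusted p = 0.999). The cationic amino acid transporter Slc7a3 was arranged alike, at 0.12 and -0.13 in the siDhx30 libraries and 0.37 and 0.16 in the siTfam libraries, a difference of -0.28 (SE 0.18). Its relative Slc7a1, the main arginine and lysine transporter of many cells, crossed over between replicates, at -0.08 and 0.44 with siDhx30, against 0.57 and -0.15 with siTfam.

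The Slc7a11 promoter window is shown because ATF4 is known to act on such genes through amino acid response elements. The core TGATGNAA was searched on both strands, and capitals mark matches.
Slc7a11, chr3:50443564-50443863, minus strand: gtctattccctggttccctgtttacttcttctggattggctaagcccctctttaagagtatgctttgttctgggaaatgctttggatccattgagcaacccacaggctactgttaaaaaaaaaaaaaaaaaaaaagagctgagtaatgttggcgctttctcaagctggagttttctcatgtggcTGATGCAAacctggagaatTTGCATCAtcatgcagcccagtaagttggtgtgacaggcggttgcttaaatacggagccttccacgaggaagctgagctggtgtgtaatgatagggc
The window held 2 matches in opposite orientations. The core occurs in 3.97% of all windows and in 3.16% of member windows. Among the 14 windows found for 7 of the Slc7 and Slc3 genes it was in 3, those of Slc7a11 and Slc7a7. Slc7a7, which exports cationic amino acids with 4F2hc, lay at -0.11 and -0.41 in the siDhx30 libraries and 0.0083 and -0.13 in the siTfam libraries. It shares 232 exon bases with the opposite-strand gene Oxa1l.

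Slc7a9 encodes the light subunit of the cystine and dibasic amino acid transporter of kidney and gut (ENSMUSG00000030492.16; GRCm38 chromosome 7, 35448796 to 35466036, plus strand). Its log2 ratios were 1.19 and 1.24 in siDhx30 and 1.22 and 1.67 in siTfam. All 4 were more than 1 above NC, the highest mean of any complete member, at 232% of NC in siDhx30 and 273% in siTfam. With the sign the other way they would be 0.431 and 0.366 times NC, the lowest mean. The mean was 1.21 in siDhx30 (SE 0.26; 95% interval 0.48 to 1.95; unadjusted p = 0.0101, limma adjusted p = 0.691) and 1.45 in siTfam (95% interval 0.71 to 2.18; unadjusted p = 0.00545, limma adjusted p = 0.568). The siRNAs were not shown to differ in it (difference -0.23, 95% interval -0.83 to 0.37).

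The rest of the family was lower or scattered. Slc7a8, the large neutral amino acid transporter LAT2, lay at -0.50 and -0.78 with siDhx30, against -0.78 and -0.25 with siTfam, below NC in every library. Slc7a6, a partner of 4F2hc that exchanges cationic for neutral amino acids, lay at 0.05 and 0.11 in the siDhx30 libraries and -0.08 and -0.06 in the siTfam libraries. Slc7a4, a relative of the cationic transporters, differed widely between replicates, at 0.13 and 1.37 with siDhx30, against -0.58 and 0.27 with siTfam. It shares 554 exon bases with the opposite-strand gene P2rx6. Of the 9 Slc7 carriers, 7 had a lower mean in siDhx30 than in siTfam, with a median difference of -0.13, beside 6073 of all 12088 genes lower. With any 1 siRNA library left out 6 of 9 were lower, and the median ran from -0.21 (without siDhx30 replicate 1) to -0.13.

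**Figure D3:**
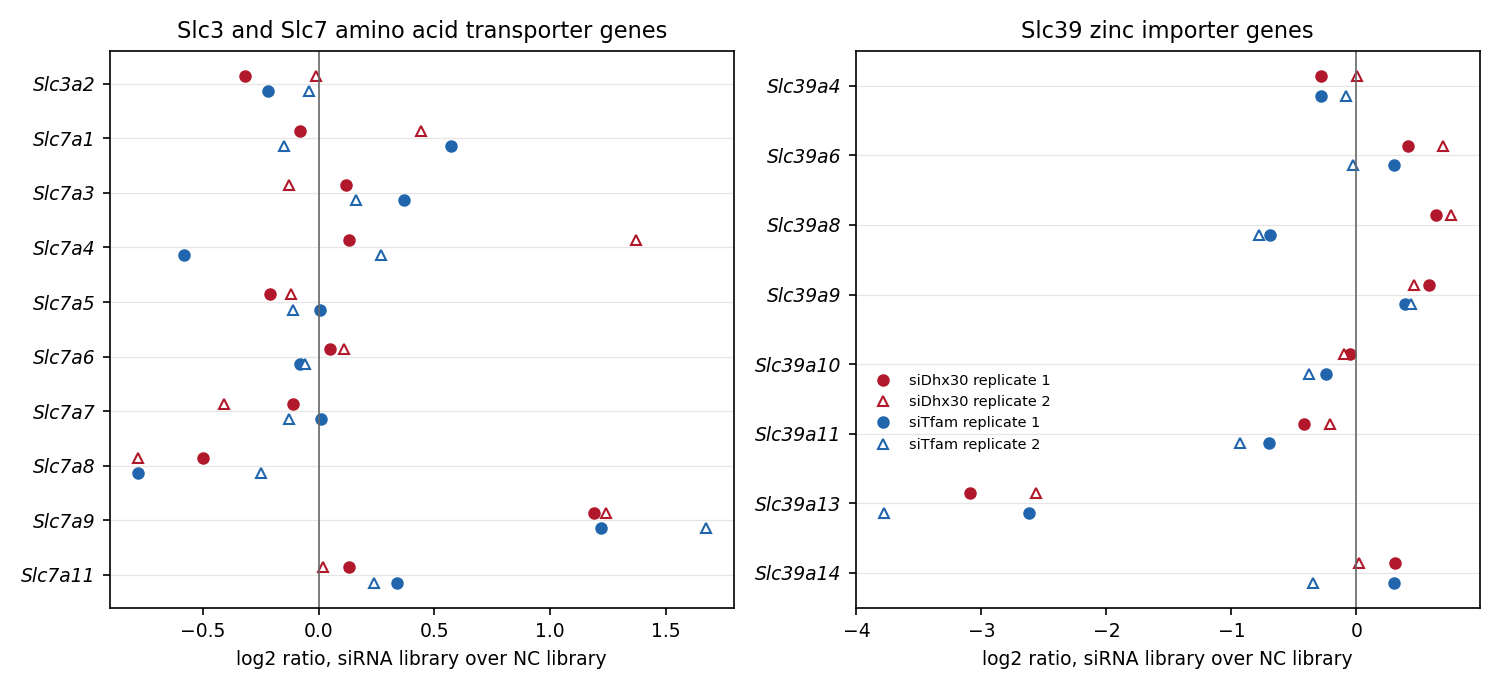
Log2 ratio to NC for each Slc3 and Slc7 carrier (left) and each complete Slc39 gene (right); red marks siDhx30, blue siTfam, circles replicate 1 and triangles replicate 2, and the vertical line is NC. The panels have different x ranges: Slc7a9 lies between 1.19 and 1.67 while most Slc7 genes are within 0.5 of NC, and Slc39a13 lies between -3.78 and -2.56 on the right.

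The amino acid families, with Slc7 and Slc3 included, centred near NC. Over all 30 complete members of the amino acid families the median was 0.03 in siDhx30 (-0.0094 without siDhx30 replicate 1). It was -0.02 in siTfam (0.0033 without siTfam replicate 2). The mean was lower in siDhx30 than in siTfam for 19 of 30 (14 of 30 without siDhx30 replicate 2), beside 6073 of all 12088 genes. The 19 include 8 of the 10 rows with an Slc7 name and Slc3a2, so they are not a separate count. Slc1a5, the glutamine importer ASCT2, lay at -0.02 and -0.08 in the siDhx30 libraries and 0.14 and 0.0030 in the siTfam libraries. Slc38a2, the amino acid starvation-induced transporter SNAT2, lay at 0.11 and -0.02 with siDhx30, against 0.09 and -0.07 with siTfam. Both stayed within 0.15 of NC in all 4 libraries. Slc43a1, another large neutral amino acid transporter, was between 0.14 and 0.24 in all 4. The glycine transporter gene Slc6a9 lay at -0.07 and -0.98 in the siDhx30 libraries and -0.19 and -0.38 in the siTfam libraries, so its mean in siDhx30 rests on replicate 2. It shares exon bases with opposite-strand genes, including 1429 with Ccdc24.

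Slc38a9, the lysosomal arginine sensor of mTORC1, lay at 0.28 and 0.57 with siDhx30, against 0.00097 and 0.17 with siTfam, a difference of 0.34 (SE 0.19), the highest of its family. Slc38a10 had the lowest mean of that family, at -0.12 and 0.0019 in the siDhx30 libraries and -0.26 and -0.29 in the siTfam libraries. The neutral amino acid transporter gene Slc6a15 had the lowest mean of the Slc6 family, at -0.42 and -0.77 in the siDhx30 libraries and -0.28 and -0.48 in the siTfam libraries.

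Genes that sense or use amino acids gave a similar picture. Of 26 listed genes for amino acid sensing, thiol metabolism and transporter subunits, 19 were complete, and 0 passed. In siDhx30 8 were above 0 and 11 below (median -0.03), and in siTfam 12 were above and 7 below (median 0.12). Above 0 were 5819 of all 12088 genes in siDhx30 and 5723 in siTfam. The siDhx30 median was -0.09 without siDhx30 replicate 2 and 0.04 with length and GC trends removed. That of siTfam became 0.06 when siTfam replicate 2 was left out and 0.03 with those trends removed. Between the siRNAs 14 of 19 were lower in siDhx30, beside 6073 of all 12088 genes. The median difference was -0.08, and it was 0.0086 without siDhx30 replicate 1 (9 of 19 lower) and -0.18 without siDhx30 replicate 2. The asparagine synthetase gene Asns lay at 0.02 and -0.04 with siDhx30, against 0.47 and 0.27 with siTfam. Atf4 itself lay at -0.14 and 0.08 in the siDhx30 libraries and 0.05 and 0.21 in the siTfam libraries. The listed thiol genes went in different directions. The glutamate-cysteine ligase subunit gene Gclm was above NC in all 4, at 0.17 and 0.42 with siDhx30, against 0.35 and 0.40 with siTfam. Gsr was below NC in all 4, at -0.38 and -0.26 with siDhx30, against -0.35 and -0.23 with siTfam. In the same library order, Gclc lay at 0.29, 0.21, 0.06 and -0.15, and Gss at -0.60, -0.47, -0.42 and 0.20. Gpx4 lay at -0.09, -0.20, 0.10 and 0.17. Bsg, the chaperone of monocarboxylate transporters, stayed between -0.18 and 0.10.

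Sugar and monocarboxylate carriers serve glycolysis. The names Slc1a4, Slc2a1, Slc5a3 and Slc16a1, listed as stress or hypoxia responders, are not analysed here. Slc2a3 encodes the glucose importer GLUT3 and was above NC in every library, at 0.39 and 0.79 in the siDhx30 libraries and 0.57 and 0.38 in the siTfam libraries (means 0.59 and 0.48, SE 0.26 each, limma adjusted p = 0.998 and 0.926). The fructose transporter gene Slc2a5 had the lowest mean of that family, at -0.50 and 0.13 with siDhx30, against -0.28 and -1.29 with siTfam. Slc16a3, the lactate exporter MCT4, was slightly below NC, at -0.26 and -0.16 in the siDhx30 libraries and -0.37 and -0.23 in the siTfam libraries. Slc16a11, a monocarboxylate transporter linked to lipid metabolism, had the lowest mean of its family, at -1.40 and -0.17 with siDhx30, against -1.89 and -1.17 with siTfam. Slc16a6 had the highest mean, at 0.52 and 0.07 in the siDhx30 libraries and 0.07 and 0.0074 in the siTfam libraries. Of the 7 complete Slc16 genes, 6 had a higher mean in siDhx30 than in siTfam (5 of 7 without siTfam replicate 2). Of all 12088 genes 6015 did. The median Slc16 difference was 0.26, and it became 0.14 when siDhx30 replicate 1 was left out and 0.13 when siDhx30 replicate 2 was.

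Choline, sodium and bicarbonate carriers held the other members with small p against NC. Slc44a2, a choline transporter-like gene, was evenly below NC, at -0.60 and -0.59 with siDhx30, against -0.57 and -0.82 with siTfam (unadjusted p = 0.0447 and 0.0275, limma adjusted p = 0.987 and 0.720). Its relative Slc44a4 was above NC, at 0.76 and 0.71 in the siDhx30 libraries and 1.00 and 0.30 in the siTfam libraries. Another relative, Slc44a3, lay at 0.40 and 0.36 with siDhx30, against 0.66 and 0.67 with siTfam (unadjusted p = 0.0200 in siTfam, limma adjusted p = 0.691), and shares 349 exon bases with an antisense gene. So of the 4 complete choline transporter-like genes, 3 had means above NC with each siRNA, and Slc44a2 lay below it. Means above NC were found for 5819 of all 12088 genes in siDhx30 and 5723 in siTfam. Slc9b2, a sodium and proton exchanger gene, lay at 0.96 and 1.16 in the siDhx30 libraries and 0.48 and 1.08 in the siTfam libraries, with a mean of 1.06 in siDhx30 (SE 0.33; unadjusted p = 0.0326, limma adjusted p = 0.925). Slc9a3r2, which encodes a scaffold for such exchangers and no carrier, was the lowest row with an Slc9 name, at -0.55 and -0.14 with siDhx30, against -0.29 and -0.10 with siTfam.

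The sodium-driven bicarbonate transporter genes Slc4a10 and Slc4a8 were the extremes of their family. Slc4a10 lay at 0.49 and 0.35 in the siDhx30 libraries and 0.77 and 1.20 in the siTfam libraries. Slc4a8 lay at -0.58 and -0.32 with siDhx30, against -0.62 and -0.68 with siTfam. Their unadjusted p in siTfam was 0.0205 and 0.0372 (limma adjusted p = 0.691 and 0.776). Slc4a5, another sodium bicarbonate cotransporter gene, was evenly below NC, at -0.48 and -0.54 in the siDhx30 libraries and -0.35 and -0.31 in the siTfam libraries (unadjusted p = 0.0467 in siDhx30, limma adjusted p = 0.987). In the chloride cotransporter family, Slc12a2, which loads chloride into cells, lay at 0.24 and 0.36 with siDhx30, against 0.63 and -0.19 with siTfam. Slc12a5, which extrudes chloride in neurons, lay at -0.0085 and -0.89 in the siDhx30 libraries and -0.65 and -0.80 in the siTfam libraries. Both chloride genes had 1 library that departed from its replicate by more than 0.8.

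Further families were named by their extremes. In the nucleotide sugar family Slc35e1, whose substrate is not settled, was highest and even, from 0.29 to 0.44 in all 4 libraries, and Slc35b4 was lowest. In the sugar phosphate family Slc37a2 lay at -1.21 and -0.84 with siDhx30, against -0.43 and -1.27 with siTfam, and Slc37a1 stayed between -0.17 and 0.14. Slc37a2 shares 241 exon bases with an antisense gene. In the fatty acid transport family Slc27a2 lay between -0.09 and 0.11 and Slc27a3 between -0.55 and 0.19.

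Transporters of vesicles and of the endolysosomal and Golgi membranes included genes far from NC whose libraries scattered. Slc18b1, the vesicular polyamine transporter gene, was above 0.5 in every library, at 1.05 and 0.52 in the siDhx30 libraries and 0.77 and 1.53 in the siTfam libraries. Slc18a2, the vesicular monoamine transporter gene, lay at 1.36 and 0.32 with siDhx30, against 1.06 and 1.76 with siTfam, and shares 111 exon bases with an antisense gene. Both genes were above NC throughout, and neither passed in siTfam (limma adjusted p = 0.845 for Slc18b1 and 0.854 for Slc18a2).

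Several large mean differences between the siRNAs came with replicates that lay far apart. Slc36a1, the lysosomal proton-coupled amino acid transporter PAT1, lay at 0.57 and -1.83 in the siDhx30 libraries and 0.19 and 0.82 in the siTfam libraries, a difference of -1.13 (SE 0.90). The Golgi UDP-galactose transporter gene Slc35a2 lay at 0.99 and 0.32 with siDhx30, against 0.74 and -1.47 with siTfam, a difference of 1.02 (SE 0.84). In both, 1 replicate stood more than 2 below its partner. Slc24a2, a sodium, calcium and potassium exchanger gene, had groups that did not overlap, at -1.73 and -0.58 in the siDhx30 libraries and -0.06 and -0.09 in the siTfam libraries, a difference of -1.08 (SE 0.43; unadjusted p = 0.069 by limma).

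The members were also grouped by substrate class, which was assigned by family number alone. The classes therefore hold rows that are not carriers, such as Slc9a3r2 among the exchangers and Slc2a4rg-ps among the sugar carriers. A member's own substrate can also differ from that of its class. The class medians in siDhx30 ran from -0.36 for the 5 genes of other metals and heme to 0.19 for the 12 vitamin and choline genes, and those in siTfam from -0.13 to 0.21. Among the 5, the siDhx30 means of the iron exporter gene Slc40a1 (0.10) and the heme transporter gene Slc48a1 (0.03) were near 0, and those of the divalent metal transporter genes Slc11a1 and Slc11a2 (-0.37 each) and the magnesium transporter gene Slc41a1 (-0.36) were lower. Sodium, calcium and proton exchangers had the median of 0.21 in siTfam, which became 0.03 when siTfam replicate 1 was left out and 0.14 when siTfam replicate 2 was. Of these 11 genes, 9 were lower in siDhx30 than in siTfam, and 6 without siDhx30 replicate 1, beside 6073 of all 12088 genes. The 4 sugar phosphate genes had means below NC in siDhx30 (-1.02 to -0.04), although Slc37a1 lay at 0.10 in replicate 1. In siTfam 6 of 7 carboxylate genes had means below NC, which became 5 without siTfam replicate 1 and 4 without siTfam replicate 2. Of all 12088 genes, 6269 had means below NC in siDhx30 and 6365 in siTfam. Zinc genes had medians of 0.16 in siDhx30 and -0.02 in siTfam over 13 genes.

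**Figure D4:**
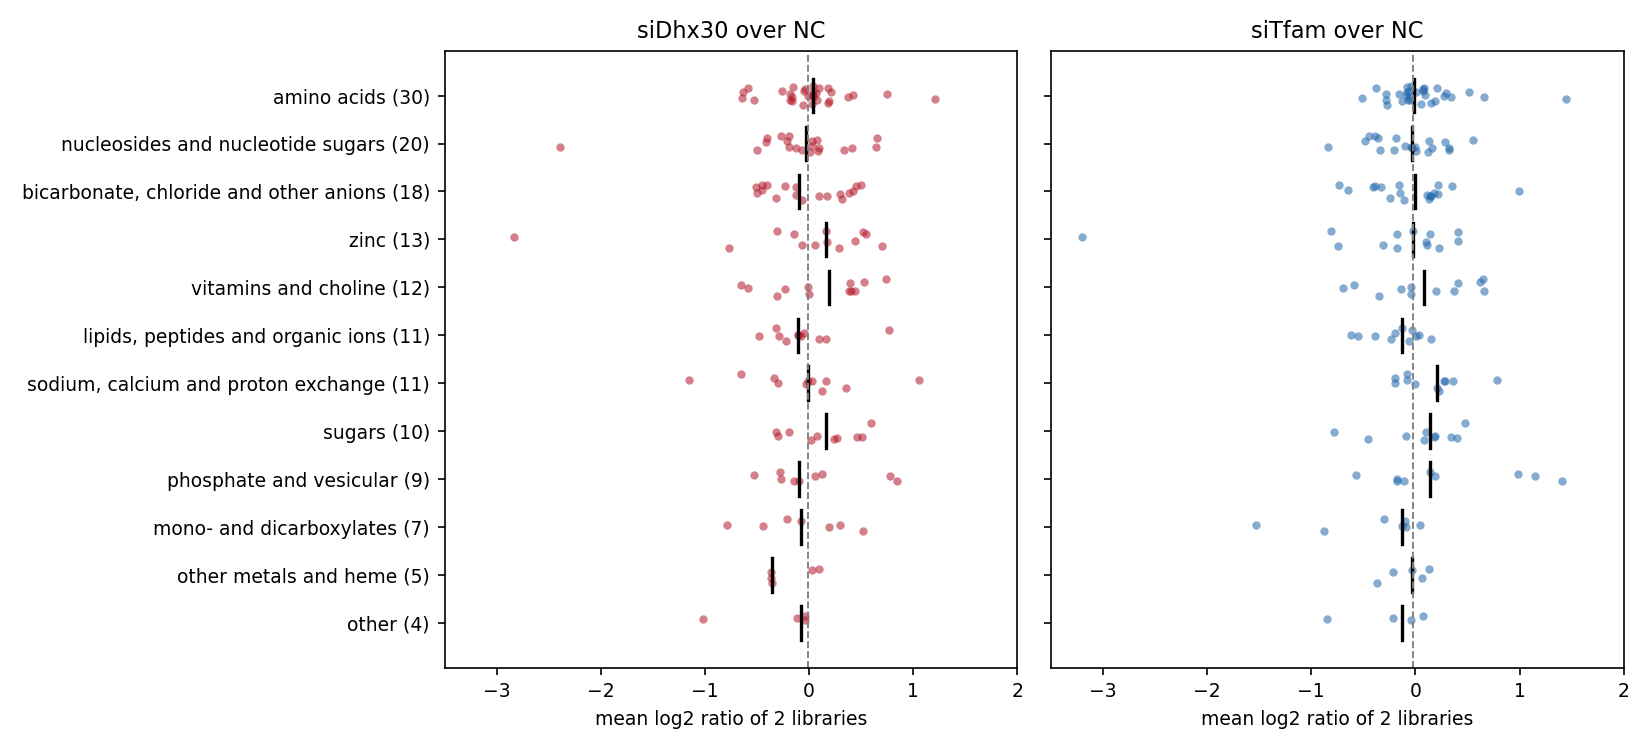
Mean log2 ratio to NC of each complete solute carrier gene (points), by substrate class with the number of genes in brackets, for siDhx30 (left) and siTfam (right); black bars are class medians and the dashed line is the median of all genes tested. Classes follow the family number and include rows that are not carriers. Class medians lie between -0.36 and 0.21, and the points far to the left are Slc39a13 and, in siDhx30, Slc35b4.

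The 7 members with missing values were left out of the tests. All 13 values that they did have were above NC as turned here, a direction that the choice of sign fixes. Slc1a1, a glutamate and cysteine transporter gene, had 1 value, 3.34 in siTfam replicate 2, and it shares 2631 exon bases with an opposite-strand gene. Slc24a3, a sodium, calcium and potassium exchanger gene, had 1.19 and 1.90 in siDhx30 and 0.51 in siTfam replicate 2. Slc16a9 had 0.97 in siDhx30 replicate 1 and 0.90 and 1.37 in siTfam. The bicarbonate transporter gene Slc4a9 had 0.71 and 0.93 in siDhx30 alone. Slc45a1 had 0.35 in siDhx30 replicate 2 and 0.75 in siTfam replicate 2. Slc2a7 and the zinc importer gene Slc39a3 each had 1 value, 0.71, in siDhx30 replicate 1.

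Rows that fit the name rule were not all carriers, and not all reads can be assigned to them. Of the 150 complete rows, 4 are not transporters: Slc2a4rg-ps (a pseudogene), Slc4a1ap, Slc9a3r2 and Slc7a6os. Slc7a6os stayed between -0.02 and 0.13 in all 4 libraries. Of the 150, 41 share exon bases with another annotated gene, mostly on the opposite strand, and whether counting used strand is not stated in the sources used here. Slc39a8, Slc17a5 and Slc7a9 are not among those 41.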

How the data were processed

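RNA of 5 libraries was sequenced. As deposited by the authors, the values are log2 fold changes in 1 table with a column per siRNA library, per the file headers. Per the submitters' processing notes, the tools were HISAT2, featureCounts, bcl2fastq and DESeq2 (version 3.14 as written there), with the build GRCm38. Their settings, strand use included, are not stated in the sources used here. Signs were turned to siRNA over NC. Names were matched to GENCODE M21 (157 of 157 members).

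All 12088 complete genes were fitted together with limma 3.58.1 (R 4.3.3, robust=TRUE, no trend, 2 residual degrees of freedom, median prior degrees of freedom 2.02), with NC as a column of zeros that was assumed to vary like the other libraries. Benjamini-Hochberg adjustment ran over all genes, with a threshold of 0.05. The code was checked on simulated data. Lists are described by counts and medians. The members and lists were chosen with earlier results of these data known. Genes named are all of Slc3, Slc7 and Slc39, the 5 smallest p per comparison, the highest and lowest mean of each other family with 4 or more members, listed ATF4 and hypoxia-related carriers, and members with missing values. Genes that this rule names but the text does not are not reported here. Slc4a1ap, Slc4a5, Slc11a1, Slc11a2, Slc18a2, Slc18b1, Slc24a2, Slc2a4rg-ps, Slc35a2, Slc36a1, Slc40a1, Slc41a1, Slc44a3 and Slc48a1 were named after their values were seen. Alternatives kept genes with missing values, used robust=FALSE, centred libraries, removed length and GC trends (9256 protein-coding genes), left out each siRNA library or blocked on the replicate number. Python 3.11.15, pandas 2.3.3 and matplotlib 3.10.9 were used.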

Additional observations from a re-analysis of the deposited data

Results flagged for a closer look

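Among reported genes, the naming rule gave 3 with both siDhx30 libraries on one side of NC and both siTfam libraries on the other. Slc4a1ap, named after its values were seen, and the target gene Dhx30 were split in the same way. The direct comparison of the siRNAs tested the difference, and no gene passed (limma adjusted p = 0.999 for each). Slc39a8 had a difference of 1.44 (siDhx30 minus siTfam; 95% interval 1.01 to 1.86). Slc7a6 had a difference of 0.15 (-0.26 to 0.55) and Slc1a5 one of -0.12 (-0.55 to 0.30), both with intervals that include 0. Slc4a1ap had a difference of -0.24 (-0.68 to 0.20) and Dhx30 one of -0.33 (-0.77 to 0.12). No group had enough libraries to look for outlying samples.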

How the results depend on the processing

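No member passed in any comparison under any alternative run, and the smallest adjusted p of a named gene was 0.343, with genes of missing values kept. Counts at an unadjusted p under 0.05 moved more. In siDhx30 against NC the 8 became 13 with length and GC trends removed, 5 without genes that share exon bases (a choice made after seeing the data, as was leaving out the 4 rows that are not carriers) and 6 to 8 with a library left out. In siTfam against NC the 10 became 14 with the replicate block, 12 with missing values kept and 11 with length and GC trends removed. It rose or fell, depending on the library, when a siTfam library was left out. In siDhx30 against siTfam the 4 became 8 with the replicate block and 4 to 9 with a library left out, where a lone library was assumed to vary like the others. The replicate numbers are only shared labels: over genes, the replicate differences of the 2 siRNAs had a correlation of 0.254, over 2 pairs, and the block changed no call. The median over members in siDhx30 against NC was 0.0051 with missing values kept, against -0.012, and -0.029 to -0.0069 with a library left out. The siTfam median was 0.01 with trends removed, against -0.036, and -0.041 to 0.0086 with a library left out. The median of siDhx30 against siTfam ran from -0.021 to 0.035, and that of Slc39 from 0.16 to 0.55, with a library left out. Of 1350 recomputed values of named genes 70 changed sign, none of them at an unadjusted p under 0.05 in the results as reported. The cause was not tested. Depth is unknown, and a ratio of few reads cannot be told from one of many.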
